A study of Homo sapiens with 9 samples.

Results

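The genes described here encode the machinery that copies DNA and supplies its nucleotides: 42 genes picked by symbol, with earlier results of these data known but no measured value in the rule. All 42 were found in the table of 13745 genes, and all 42 were among the 12481 genes tested. RNA was measured by polyA RNA-seq in BJ cells, human skin fibroblasts immortalised with telomerase (hTERT), in which an oncogenic RAS, RASG12V, was switched on to drive the cells into senescence, a lasting arrest of proliferation. The sample labels list 14 days of 4-OHT, the drug that switches RAS on, for every library, the control included, which the design text describes as untreated. The control (1 library) carried the non-targeting hairpin 500. The senescent group (2 libraries) had RAS activated with the non-targeting hairpins 500 and 507. In 4 further RAS-activated libraries the non-coding transcript LncRNA-OIS1 was targeted with hairpins 32-2, 32-3, 32-8 and 32-9, called replicates 1 to 4 here. In 1 library p53 was knocked down before RAS activation, and in 1 library BRD7, a bromodomain protein. The labels do not say whether the libraries of a group came from separate cultures. The p-values therefore reflect only how these libraries vary, which may be technical. Within the senescent and lncRNA-OIS1 groups each library carried its own hairpin, so differences between hairpins are part of this variation. The control and the p53 and BRD7 knockdowns are 1 library each, with no replicate check of their own.

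Copying a genome starts before S phase, when the origin recognition complex with CDC6 and CDT1 loads the ring of MCM2 to MCM7 onto DNA. In S phase the ring becomes an active helicase once CDC45 and GINS join it. Polymerase alpha and its primase start each strand, polymerases delta and epsilon extend it on the PCNA clamp, FEN1 and LIG1 join the lagging-strand pieces, and CAF-1 and ASF1 rebuild chromatin behind the fork. Ribonucleotide reductase, thymidylate synthase, thymidine kinase and dUTPase supply the nucleotides. Many of these genes are targets of E2F factors, which RB holds inactive in arrested cells, and p53 acts on the same switch through the CDK inhibitor p21.

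Each value was a read count that the authors had normalised so that all libraries hold the same set of values, with 340.1 as its median, 14916466.5 as its sum and 20 as its floor. Sequencing depth cannot be read from such values, so their counting error cannot be estimated. No library had a member at the floor, and the lowest member value was 32. BRD7 stood at 94.6 in its own knockdown and at 536.6 to 695.3 elsewhere. The transcript of LncRNA-OIS1 was not analysed here, and its knockdown was not checked. All 10 of 10 fibroblast markers looked for were present. Their summed value was 365100 in the control, 93567 to 106820 in the senescent libraries and 121380 to 162800 in the knockdowns. The part of this difference in the results was not tested. COL1A1 and COL1A2 weighed most in the sum (110360.7 and 129460.3 in the control). VIM alone was higher in both senescent libraries (55498.9 and 48419.6, against 39745.4 in the control), and the other markers were lower. VIM and PDGFRA were above the control in every knockdown library, and the other markers were below it. Of other cell types the table held 3 of 7 epithelial markers (KRT8, KRT18 and KRT19, summed 3686.7 in the control, 1617.5 to 1892.8 in senescent cells and 801.4 to 2105.3 in the knockdowns), 2 of 6 leukocyte markers (196.5, 135.2 to 163.9 and 45.1 to 137.7) and 1 of 6 endothelial markers (22.2, 37.4 to 40.7 and 44.9 to 266.9). EPCAM, CDH1, CD3E, CD68, PECAM1 and VWF were not among its genes.

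Replication genes were lower in senescent cells than in control cells, and higher again in each of the 6 knockdown libraries. Set against the control library gene by gene, the median member stood at 52.6% and 46.5% in the senescent libraries. The lncRNA-OIS1 replicates 1 to 4 had medians of 82.9%, 121%, 90.5% and 130% of control. The p53 knockdown had a median of 164% and the BRD7 knockdown of 115%. Senescent replicate 2 held the lowest of the 9 values for 40 of the 42 genes (11.8% of all genes tested). The p53 knockdown held the highest for 27 (17.1% of all genes tested). In bulk RNA, fewer cells in S phase and less of these transcripts per cell cannot be told apart.

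**Figure D1:**
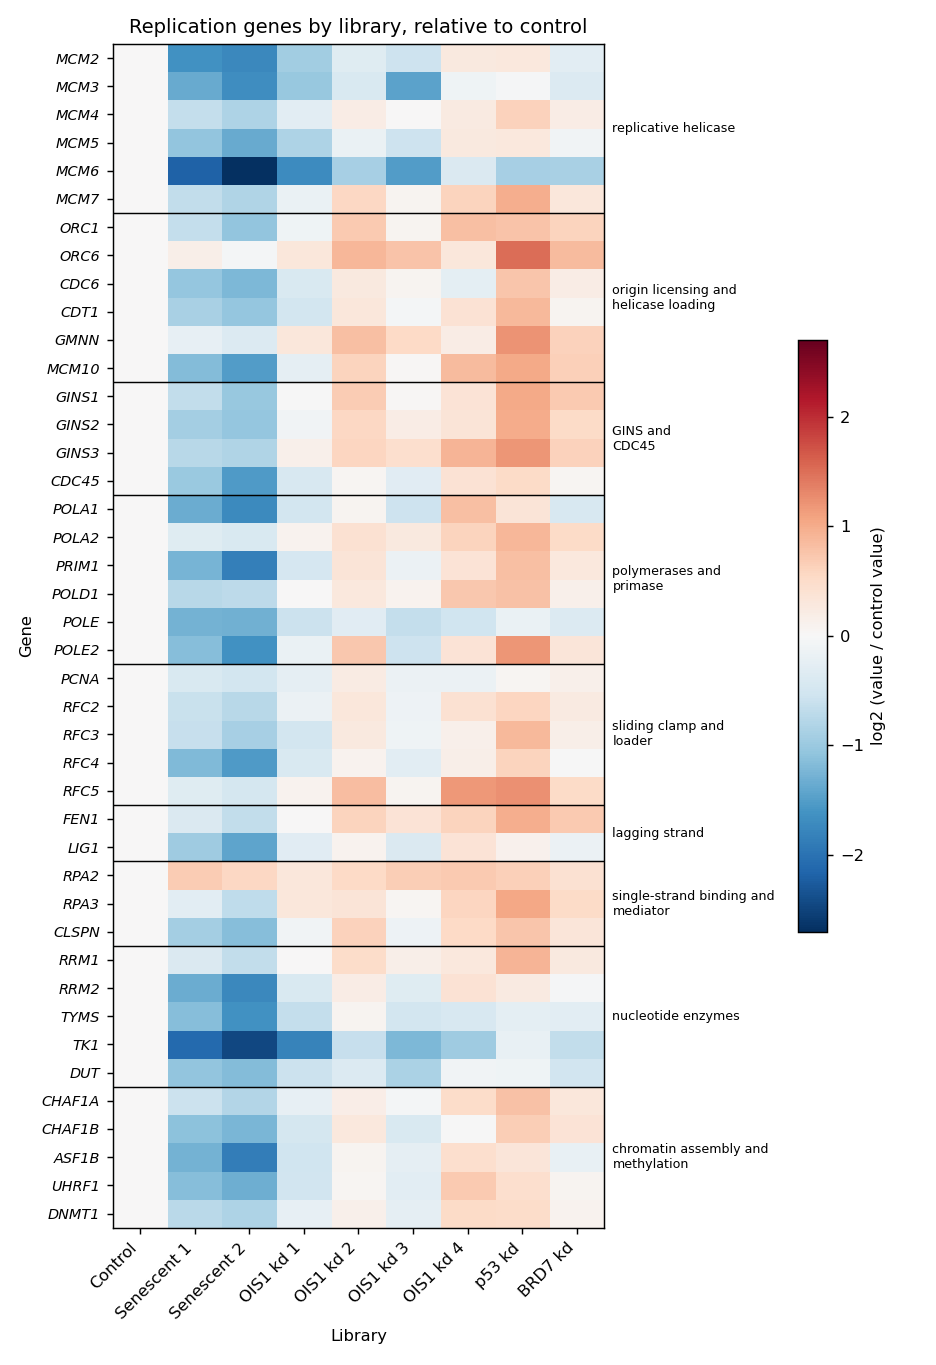
Each row is 1 of the 42 genes, grouped by role, and each column 1 library; colour gives log2 of the value over the control value (blue lower, red higher, control 0 by construction). Both senescent columns are blue for 40 of the 42 rows, the exceptions being ORC6 and RPA2, and MCM6 and TK1 stay blue in every knockdown column.

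Senescent cells had lower values than control cells for 40 of the 42 genes in both libraries, against 42.8% of all genes tested. The 2 exceptions were ORC6, a subunit of the origin recognition complex, and RPA2, a subunit of the single-strand binding protein RPA. The median log2 change over the members was −1.01, against 0.03 over all genes tested, and single genes ran from −2.44 to 0.62. In the limma fit, 5 members fell at an adjusted p under 0.05 and none rose. Over all genes tested 7.1% were called lower and 7.95% higher. The 5 were the helicase subunit MCM6, thymidine kinase TK1, thymidylate synthase TYMS, the clamp loader subunit RFC4 and POLE, the catalytic subunit of polymerase epsilon. At an unadjusted p under 0.05 there were 23 members of 42, and 4210 genes of 12481. These calls rest on few libraries: without either senescent library no member was called, and without lncRNA-OIS1 replicate 1, 2 or 3, which enter through the shared variance, 2, 3 and 1 were. Without lncRNA-OIS1 replicate 4, 18 members were called lower, with 14.5% of all genes tested called lower.

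In the knockdowns nearly every member lay above the senescent level. In 40 of the 42 genes all 6 knockdown libraries lay above both senescent libraries, against 14.7% of all genes tested. The exceptions were MCM3 and RPA2. With lncRNA-OIS1 replicate 4 left out the count was also 40, against 17.963% of all genes tested. Leaving a library out cannot lower such a count, so the unchanged number is no check of it. For the 6 knockdown libraries together the median log2 difference from the senescent libraries was 1.14 (−0.02 over all genes tested), and limma called 16 members higher, where 2.67% of all genes tested were called higher. For p53 knockdown alone the median was 1.62, 41 of the 42 genes lay above both senescent libraries (43.4% of all genes tested), and 11 were called higher (2.27% of all genes tested). All of these comparisons share the 2 senescent libraries. Without either of those, or without lncRNA-OIS1 replicate 1, 2 or 3, no member was called in either comparison. Without lncRNA-OIS1 replicate 4 the counts were 34 for the 6 libraries and 36 for p53, where 8.46% and 9.66% of all genes tested were called higher.

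LncRNA-OIS1 knockdown and BRD7 knockdown taken alone gave no call. With lncRNA-OIS1 hairpins 41 of 42 members had a positive log2 change (median 1.02) and 40 lay above both senescent libraries in all 4 replicates, against 17.1% of all genes tested. In this comparison limma called 0% of all genes tested higher. At an unadjusted p under 0.05 there were 39 members of 42, and 2805 genes of 12481. The lowest adjusted p of a member was 0.0788, for GINS2 and POLE. Without replicate 4, GINS3 (log2 1.17) and POLD1 (log2 0.87) were called higher, both at an adjusted p of 0.0482. With BRD7 knockdown 41 of 42 lay above both senescent libraries, against 40.1% of all genes tested, and the median log2 change was 1.12. Again 0% of all genes tested were called higher. At an unadjusted p under 0.05 there were 37 members, and 1735 genes in all.

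**Figure D2:**
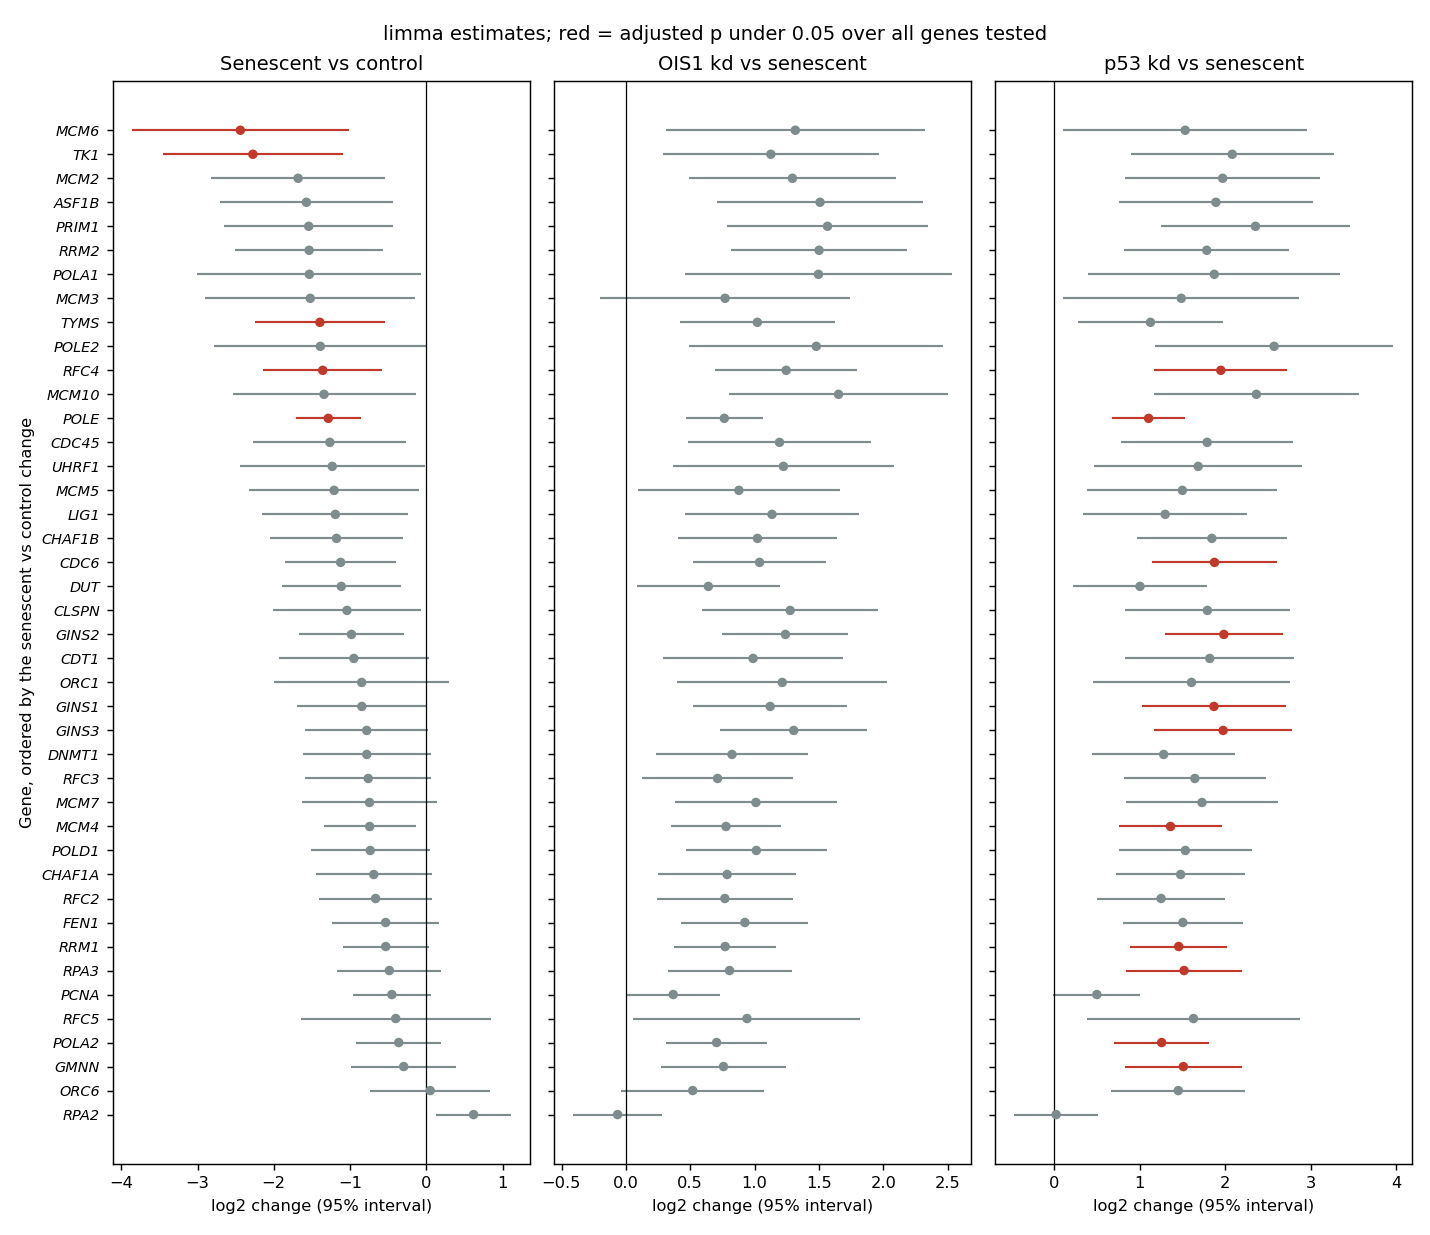
Points are limma log2 changes with 95% intervals for the 42 genes in 3 comparisons, ordered from the most negative senescent change at the top; each panel has its own horizontal scale, and red marks an adjusted p under 0.05 over all genes tested. Of the genes, 40 lie left of 0 for senescent against control, 41 lie right of 0 for lncRNA-OIS1 knockdown and all 42 for p53 knockdown, while MCM6, with the largest fall, has wide intervals in all 3 panels.

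Promoter sequences were read from RefSeq (GRCh38.p14) for 38 of the 42 genes, in a window from 250 bases before to 50 bases after the start of each gene; MCM4, MCM5, RPA2 and RPA3 were not matched. The window was searched on both strands for the E2F-type octamers TTTCCCGC, TTTGGCGC, TTTCGCGC and TTTGCCGC. They were found in 20 of the 38 promoters (52.6%), against 3.33% of all 27305 promoters of that table and 5.36% of the 8907 matched to a gene tested here. A CCAAT box was in 55.3% of the members' windows and 35.7% of all windows, and TTTGAA, the core of the element known from mitotic genes, in 5.26% and 15.4%. Among the promoters matched to a gene tested these shares were 36.9% and 9.72%. The sequences below are shown because MCM6, POLE and TYMS are the called genes of the senescent comparison that hold an octamer, and GINS2 had the largest change among the members called with p53 knockdown. Capitals mark the matches, which in MCM6 overlap in 2 pairs, and each sequence runs 5′ to 3′ along the gene up to the base before its start.
MCM6 (chr2:135876444-135876613, minus strand): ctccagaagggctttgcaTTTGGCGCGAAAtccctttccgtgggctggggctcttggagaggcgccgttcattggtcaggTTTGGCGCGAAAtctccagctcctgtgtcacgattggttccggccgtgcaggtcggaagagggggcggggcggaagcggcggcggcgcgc
POLE (chr12:132687343-132687402, minus strand): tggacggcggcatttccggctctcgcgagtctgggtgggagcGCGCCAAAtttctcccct
TYMS (chr18:657593-657652, plus strand): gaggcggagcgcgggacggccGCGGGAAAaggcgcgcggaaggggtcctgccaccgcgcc
GINS2 (chr16:85688955-85689014, minus strand): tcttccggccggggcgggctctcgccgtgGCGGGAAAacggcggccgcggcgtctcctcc
In MCM6 the matches begin 152, 148, 90 and 86 bases before the start, in POLE 18, in TYMS 39 and in GINS2 31 bases before it. MCM2, MCM3 and MCM7 were the other members with at least 2 matches. TK1 and RFC4, also called in the senescent comparison, had no match in this window. A match is a stretch of letters and not a measured binding site.

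The MCM2 to MCM7 ring is the replicative helicase. All 6 subunits lay below the control in both senescent libraries, with log2 changes from −2.44 to −0.74 (median −1.37), and MCM6 (ENSG00000076003) was called. MCM6 stood at 1314.2 in the control and at 287.4 and 204.6 in senescent cells. The lncRNA-OIS1 replicates 1 to 4 had 404.7, 708.8, 461.6 and 1005.7, p53 knockdown had 702.0 and BRD7 knockdown 720.6. All 6 knockdown libraries thus lay above both senescent libraries and below the control. MCM6 fell to a senescent mean of 246 ± 58.5 (SD, n = 2), by 2.44 on the log2 scale (SE 0.57, adjusted p = 0.0453).

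Among the ring subunits MCM6 lay lowest relative to control in every library besides the control. All these comparisons use the same control library, which has no replicate, so they are not separate checks. Its log2 value against control was below the mean of the other 5 subunits by −1.12 and −1.40 in the senescent libraries. The same difference was −1.05, −0.86, −1.01 and −0.64 in lncRNA-OIS1 replicates 1 to 4, −1.33 with p53 knockdown and −0.82 with BRD7 knockdown. MCM6 also had the lowest percent of control of all 42 genes in the senescent mean (18.7%), in lncRNA-OIS1 replicates 2 and 3 (53.9% and 35.1%), in p53 knockdown (53.4%) and in BRD7 knockdown (54.8%). TK1 was lower in replicates 1 and 4, at 28.5% and 51.6%.

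**Figure D3:**
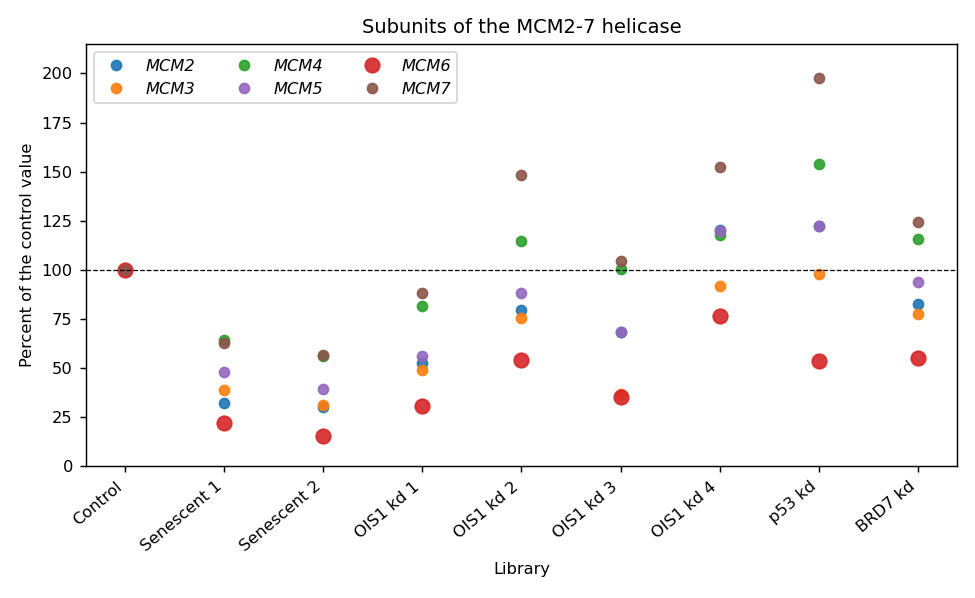
The 6 subunits of the helicase ring are plotted as percent of the control value (vertical axis, dashed line at 100%) in each of the 9 libraries. All points of a subunit are set against the same control library. MCM6, the larger red point, is the lowest in all 8 libraries besides the control, close to MCM3 in lncRNA-OIS1 replicate 3, while MCM7 and MCM4 reach 198% and 154% with p53 knockdown.

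The other ring subunits except MCM3 passed the control level in part of the knockdown libraries. MCM7 had 2014.9 in the control, 1266.9 and 1141.1 in senescent cells, 1779.8, 2982.3, 2109.4 and 3073.7 with lncRNA-OIS1 hairpins, 3986.9 with p53 and 2504.4 with BRD7 knockdown. MCM4 had 2299.4, then 1471.1 and 1283.7, then 1874.0, 2639.3, 2304.0 and 2704.6, and 3532.4 and 2655.2 in the same order. For both genes the knockdown libraries clear the senescent pair, and only lncRNA-OIS1 replicate 1 lies below the control. MCM4 was the ring subunit called higher, by 1.36 on the log2 scale with p53 knockdown (SE 0.24, adjusted p = 0.0495) and by 0.90 over the 6 knockdown libraries (adjusted p = 0.0461). MCM3 was the ring subunit whose groups overlapped: lncRNA-OIS1 replicate 3, at 554.8, lay between the senescent values of 587.0 and 472.7, while its control value was 1512.4 and the other 5 knockdown libraries held 742.4 to 1477.3. MCM2 stood at 996.9 in the control, at 322.3 and 299.8 in the senescent libraries and at 523.7 to 1218.6 in the knockdowns (senescent change −1.68, adjusted p = 0.0627). MCM5 stood at 1247.4, at 597.9 and 487.1, and at 696.4 to 1526.8.

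Origin licensing genes had a senescent median of −0.90 on the log2 scale, and none of the 6 was called against control. CDC6, the ATPase that helps load the helicase, stood at 1024.4 in the control and at 498.6 and 443.3 in senescent cells. With lncRNA-OIS1 hairpins CDC6 had 769.6, 1222.8, 1082.4 and 855.0, with p53 knockdown 1725.0 and with BRD7 knockdown 1173.8. All knockdown values lay above the senescent pair, and CDC6 rose by 1.88 on the log2 scale with p53 knockdown (SE 0.30, adjusted p = 0.0467) and by 1.23 over the 6 libraries (adjusted p = 0.0422). GMNN encodes geminin, which holds CDT1 in check after S phase begins. It stood at 336.1 in the control and at 288.7 and 259.4 in senescent cells, a difference of −0.30 (adjusted p = 0.503). With lncRNA-OIS1 hairpins GMNN had 415.3, 592.2, 485.7 and 384.9, with p53 knockdown 780.4 and with BRD7 knockdown 518.2, all above the control. GMNN rose by 1.51 with p53 knockdown against senescent (adjusted p = 0.0495). CDT1 itself had 195.1 in the control, 107.0 and 95.3 in senescent cells and 137.8 to 356.6 in the knockdowns.

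ORC6 departed from the rest of the licensing genes. It stood at 217.3 in the control and at 243.7 and 208.0 in senescent cells, a log2 difference of 0.05 with a 95% interval from −0.73 to 0.84. This sign turned under another scaling and without senescent replicate 1 (−0.02 and −0.06). With lncRNA-OIS1 hairpins ORC6 had 268.2, 405.9, 370.6 and 268.7, with p53 knockdown 616.0 and with BRD7 knockdown 395.7. Every knockdown library lay above the control and above both senescent libraries. ORC6 had the highest percent of control of the 42 genes in lncRNA-OIS1 replicates 2 and 3 (187% and 171%), p53 knockdown (283%) and BRD7 knockdown (182%). Its log2 difference between p53 knockdown and senescent was 1.45 (adjusted p = 0.0647). ORC1, the large subunit of the same complex, stood at 166.0 in the control, at 106.8 and 79.7 in the senescent libraries and at 153.0 to 292.7 in the knockdowns.

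MCM10, which helps turn the loaded ring into an active helicase, had the largest member difference with lncRNA-OIS1 and with BRD7 knockdown. It stood at 272.1 in the control and at 120.4 and 95.8 in senescent cells. With lncRNA-OIS1 hairpins it had 231.1, 413.3, 276.6 and 491.6, with p53 knockdown 553.1 and with BRD7 knockdown 428.0. The knockdown values straddled the control, and all were clear of the senescent pair. Against senescent, MCM10 was higher by 1.65 with lncRNA-OIS1 knockdown (95% interval 0.80 to 2.50, adjusted p = 0.0860) and by 1.99 with BRD7 knockdown (0.79 to 3.19, adjusted p = 0.201). Over the 6 libraries it rose by 1.83 (adjusted p = 0.0452), the largest rise among the 16 called members.

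GINS and CDC45 complete the active helicase. The 4 genes were below control in both senescent libraries (median −0.91, none called), and 3 of the 4, GINS1, GINS2 and GINS3, rose both with p53 knockdown and over the 6 knockdown libraries. GINS2 had 244.2 in the control, 128.7 and 118.9 in senescent cells, 230.2, 359.9, 282.4 and 311.3 with lncRNA-OIS1 hairpins, 489.7 with p53 and 351.7 with BRD7 knockdown. The senescent pair was tight and every knockdown library well above it. The rise of GINS2 was 1.99 on the log2 scale with p53 knockdown (95% interval 1.29 to 2.68, adjusted p = 0.0467) and 1.41 over the 6 libraries (adjusted p = 0.0416). GINS3 had 109.1, then 64.9 and 62.1, then 120.3, 163.6, 149.3 and 205.8, and 249.8 and 167.8, in the same order. All 6 of its knockdown values were above the control. GINS1 stood at 334.1 in the control, 210.1 and 164.6 in senescent cells and 332.6 to 679.4 in the knockdowns, and CDC45 at 289.9, at 144.6 and 100.7, and at 215.9 to 417.2. With p53 knockdown CDC45 was higher than senescent by 1.79 (adjusted p = 0.0679).

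The polymerase and primase genes were lower in both senescent libraries for all 6 members, with a median of −1.34. POLE was the one called, and it had the lowest adjusted p of all 42 genes in that comparison. It stood at 945.2 in the control and at 389.2 and 386.4 in senescent cells. With lncRNA-OIS1 hairpins POLE had 629.3, 768.0, 601.3 and 649.0, with p53 knockdown 834.6 and with BRD7 knockdown 736.1. The 6 knockdown libraries filled the gap between the groups, above both senescent libraries and below the control. POLE fell by 1.29 in senescence (SE 0.17, adjusted p = 0.0120) and rose by 1.11 with p53 knockdown (adjusted p = 0.0467) and by 0.85 over the 6 libraries (adjusted p = 0.0416).

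PRIM1, the catalytic subunit of primase, and POLE2, a small subunit of polymerase epsilon, had larger but less certain differences. PRIM1 had 196.2 in the control, 82.8 and 54.8 in senescent cells, 143.4, 248.1, 174.9 and 254.9 with lncRNA-OIS1 hairpins, 344.4 with p53 and 239.6 with BRD7 knockdown. Its knockdown values straddled the control and cleared the senescent pair. PRIM1 rose by 1.74 over the 6 libraries (adjusted p = 0.0439), while with p53 knockdown alone the difference of 2.35 had an adjusted p of 0.0525. POLE2 stood at 99.1 in the control, 44.7 and 32.0 in senescent cells, 88.1, 164.0, 67.1 and 127.6 with lncRNA-OIS1 hairpins, 224.9 with p53 and 124.9 with BRD7 knockdown. Its p53 difference of 2.57 was the largest of any member against senescent and was not called (95% interval 1.18 to 3.97, adjusted p = 0.0649). POLA2, the regulatory subunit of polymerase alpha, had one of the smaller senescent differences: 449.6 in the control, 359.7 and 340.4 in senescent cells, and 478.2 to 837.0 in the knockdowns. POLA2 rose by 1.26 with p53 knockdown and by 0.83 over the 6 libraries (adjusted p = 0.0495 and 0.0468). POLA1, the catalytic subunit, had 430.9 in the control, 170.2 and 130.2 in senescent cells and 294.6 to 752.7 in the knockdowns, the highest in lncRNA-OIS1 replicate 4. POLD1, the catalytic subunit of polymerase delta, had 250.1, then 147.8 and 152.7, then 252.7 to 435.4.

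PCNA, the sliding clamp, had smaller differences than RFC4 of its loader. PCNA stood at 1666.8 in the control and at 1253.3 and 1185.2 in senescent cells. With lncRNA-OIS1 hairpins it had 1404.7, 1938.7, 1500.6 and 1498.7, with p53 knockdown 1725.7 and with BRD7 knockdown 1841.0. All knockdown libraries were above the senescent pair, yet the p53 difference of 0.50 (95% interval −0.01 to 1.01) was the smallest of the 42 after RPA2, and PCNA was one of 2 members, with MCM6, that were not higher with p53 than with BRD7 knockdown. RFC4, a subunit of the ring that opens the clamp, had 285.0 in the control, 125.1 and 98.8 in senescent cells, 213.0, 304.0, 234.0 and 318.7 with lncRNA-OIS1 hairpins, 429.3 with p53 and 283.7 with BRD7 knockdown. RFC4 fell by 1.36 in senescence (SE 0.31, adjusted p = 0.0436) and rose by 1.95 with p53 knockdown (adjusted p = 0.0467) and by 1.38 over the 6 libraries (adjusted p = 0.0421). The other loader subunits were not called. RFC2 stood at 356.7 in the control, 236.8 and 213.8 in senescent cells and 319.6 to 535.8 in the knockdowns. RFC3 stood at 497.3, at 323.6 and 265.9, and at 354.2 to 918.1. RFC5 had a smaller senescent difference, with 321.9 in the control and 258.4 and 230.0 in senescent cells, and reached 721.2 in lncRNA-OIS1 replicate 4 and 754.6 with p53 knockdown.

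On the lagging strand, FEN1, the nuclease that trims each piece, had 884.9 in the control, 674.8 and 554.4 in senescent cells, 893.4, 1334.2, 1139.4 and 1338.6 with lncRNA-OIS1 hairpins, 1737.1 with p53 and 1450.0 with BRD7 knockdown. Every knockdown library was above the control as well as the senescent pair. FEN1 rose by 1.08 over the 6 libraries (adjusted p = 0.0443), and with p53 knockdown the difference of 1.51 had an adjusted p of 0.0517. LIG1, the ligase that seals the pieces, had 396.6 in the control, 204.3 and 147.4 in senescent cells and 301.1 to 513.7 in the knockdowns, and was not called.

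RPA2 was the member that did not move with the others. It stood at 551.8 in the control and at 884.6 and 812.8 in senescent cells. With lncRNA-OIS1 hairpins it had 678.3, 800.4, 880.6 and 904.8, with p53 knockdown 863.4 and with BRD7 knockdown 735.2. The control was the lowest of the 9 libraries, and the knockdown values overlapped the senescent pair. The senescent difference of 0.62 was not called (95% interval 0.13 to 1.11, adjusted p = 0.0890). With p53 knockdown the difference from senescent was 0.03 (−0.47 to 0.52), and with lncRNA-OIS1 knockdown −0.06 (−0.41 to 0.28). Leaving out senescent replicate 2 and lncRNA-OIS1 replicate 1, respectively, turned these signs (−0.04 and 0.02). RPA3, the small subunit of the same complex, followed the other members instead. It had 204.0 in the control, 167.3 and 127.1 in senescent cells, 253.4, 259.7, 211.7 and 303.0 with lncRNA-OIS1 hairpins, 418.3 with p53 and 293.0 with BRD7 knockdown. RPA3 rose by 1.52 with p53 knockdown and by 0.96 over the 6 libraries (both adjusted p = 0.0495). CLSPN, the fork protein claspin that passes the checkpoint signal, had 428.4, then 225.2 and 192.7, then 388.8 to 721.6, and rose by 1.38 over the 6 libraries (adjusted p = 0.0492).

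The 5 nucleotide enzymes had the lowest senescent median of the 9 groups of members, −1.40, with TK1 and TYMS called. TK1, the salvage kinase for thymidine, stood at 1757.4 in the control and at 409.6 and 322.3 in senescent cells. With lncRNA-OIS1 hairpins TK1 had 500.3, 1142.4, 763.1 and 907.6, with p53 knockdown 1539.1 and with BRD7 knockdown 1102.9. Like MCM6 and POLE, it lay between the senescent pair and the control in every knockdown library. TK1 fell by 2.27 in senescence (SE 0.48, adjusted p = 0.0345), to 20.8% of control. TYMS, which makes thymidylate, had 1171.6 in the control, 525.0 and 378.0 in senescent cells, 750.1, 1234.4, 828.1 and 872.8 with lncRNA-OIS1 hairpins, 973.4 with p53 and 965.8 with BRD7 knockdown. TYMS fell by 1.40 in senescence (SE 0.34, adjusted p = 0.0495). lncRNA-OIS1 replicate 2 alone exceeded its control value.

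The 2 subunits of ribonucleotide reductase differed in size of change. RRM2, the small subunit that is made in S phase, had 2377.4 in the control, 938.0 and 715.9 in senescent cells, 1781.3, 2750.4, 1902.3 and 3108.0 with lncRNA-OIS1 hairpins, 2824.3 with p53 and 2330.9 with BRD7 knockdown. The knockdown values straddled the control and were all clear of the senescent pair. Its senescent difference of −1.54 had an adjusted p of 0.0530, and RRM2 rose by 1.55 over the 6 libraries (adjusted p = 0.0432). RRM1, the large catalytic subunit, had 2364.2 in the control, 1802.0 and 1483.6 in senescent cells, 2393.0, 3355.4, 2639.3 and 2863.9 with lncRNA-OIS1 hairpins, 4490.9 with p53 and 2829.7 with BRD7 knockdown. All 6 knockdown libraries were above the control. RRM1 rose by 1.46 with p53 knockdown (adjusted p = 0.0467) and by 0.89 over the 6 libraries (adjusted p = 0.0439). DUT, the dUTPase that keeps uracil out of DNA, had 694.2 in the control, 331.3 and 310.1 in senescent cells, and 382.7 to 654.0 in the knockdowns, below the control in all 6.

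**Figure D4:**
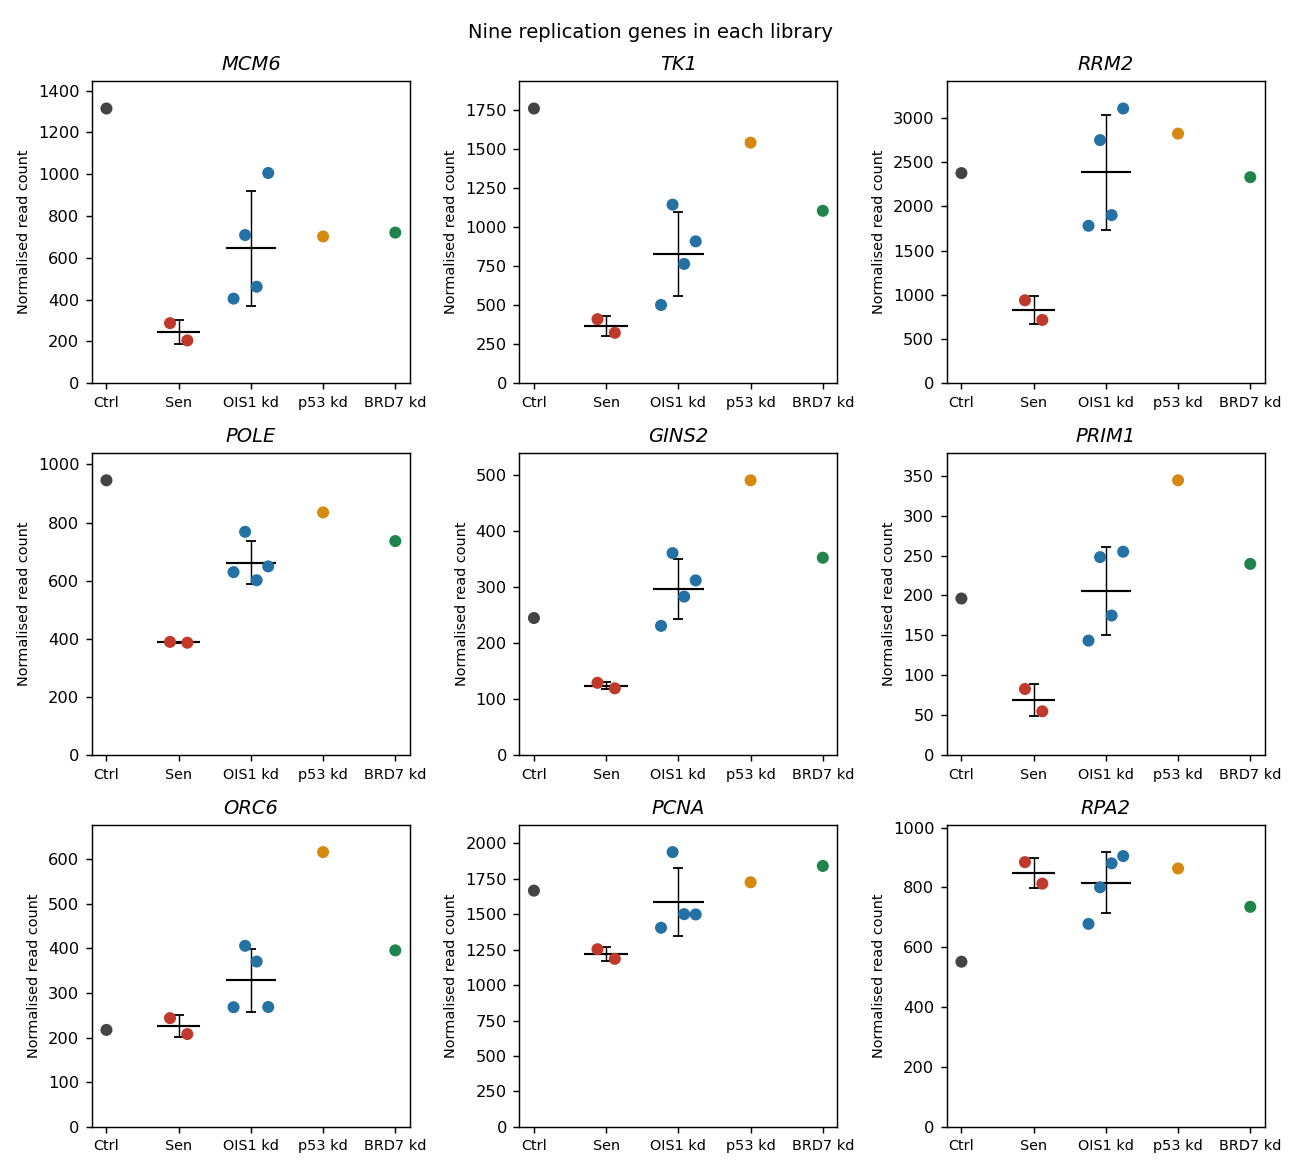
Each panel shows 1 gene, with 1 point per library (normalised read count, axes from 0) for control, senescent, lncRNA-OIS1, p53 and BRD7 knockdown; bars give the mean and SD of the 2 senescent and 4 lncRNA-OIS1 libraries. MCM6, TK1 and POLE stay below the control point in every knockdown, RRM2, GINS2 and PRIM1 reach or pass it in part of them, the ORC6 control point lies between its 2 senescent points, and RPA2 is lowest in the control.

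Chromatin assembly and methylation genes had a senescent median of −1.18, with none of 5 called. CHAF1B, a subunit of the histone chaperone CAF-1, had 237.8 in the control, 109.6 and 100.9 in senescent cells, 171.2, 290.8, 178.1 and 235.0 with lncRNA-OIS1 hairpins, 377.7 with p53 and 308.2 with BRD7 knockdown. All knockdown values were above the senescent pair, and CHAF1B rose by 1.25 over the 6 libraries (adjusted p = 0.0492), the one call of this group. Its partner CHAF1A had 429.9, then 285.7 and 249.0, then 369.7 to 743.9. ASF1B, a chaperone that hands histones to CAF-1, had 289.9 in the control, 119.1 and 79.8 in senescent cells and 200.4 to 397.0 in the knockdowns (adjusted p = 0.0512 over the 6 libraries). UHRF1, which reads half-methylated DNA and brings in DNMT1, had 1354.2 in the control, 613.2 and 541.2 in senescent cells, and 948.1, 1410.2, 1110.2 and 2211.1 with lncRNA-OIS1 hairpins. DNMT1, the maintenance methyltransferase, had 2080.1, then 1264.2 and 1159.3, then 1784.0, 2273.8, 1745.7 and 2984.7. For both genes replicate 4 was the highest of the 9 libraries, above p53 knockdown (1852.1 for UHRF1 and 2944.2 for DNMT1) and BRD7 knockdown (1427.2 and 2232.4).

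The members' levels differed among the 4 lncRNA-OIS1 hairpins. Replicate 1 had the lowest of the 4 values for 31 members (replicate 1 was lowest for 22.0% of all genes tested). Replicate 3 had the lowest for 10, about its share of all genes tested (22.3%). Replicate 4 had the highest for 28 (36.3% of all genes tested) and replicate 2 for the other 14 (18.8%). Relative to the senescent mean, the median member stood 1.63-fold, 2.45-fold, 1.77-fold and 2.53-fold higher in replicates 1 to 4, 3.07-fold higher with p53 knockdown and 2.17-fold with BRD7 knockdown. Replicate 4 was highest for all of MCM2 to MCM7, whereas GMNN had its lowest value there. The p53 library lay above every lncRNA-OIS1 library for 30 members (24.8% of all genes tested), and the BRD7 library lay within their range for 39 (70.3% of all genes tested), GINS1, FEN1 and CHAF1B being above it. The p53 library was above the BRD7 library for 40 members (52.3% of all genes tested). These are orders of single libraries with no test. The 2 senescent libraries also differed in 1 direction: replicate 1 was above replicate 2 for 41 members, POLD1 excepted, by a median of 0.23 on the log2 scale (48.0% of all genes tested).

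Against the control library no member was called in any knockdown by limma. With lncRNA-OIS1 hairpins the median log2 difference was 0.04 (0.05 over all genes tested), and it turned to −0.01 under another scaling and to −0.04 and −0.05 without replicates 2 and 4. All 4 replicates were above the control for 10 members (32.1% of all genes tested) and below it for 5 (28.7%). Over all genes tested 5.38% were called higher and 5.83% lower, and 3 members had an unadjusted p under 0.05, as had 3654 genes. With p53 knockdown the median was 0.71 (0.04 over all genes tested) and 36 members were above the control (52.2% of all genes tested). Over all genes tested 4.43% were called higher and 4.66% lower, and 10 members of 42 had an unadjusted p under 0.05, as had 3687 of the 12481 genes. Without lncRNA-OIS1 replicate 4, which enters through the shared variance, ORC6, GMNN, GINS3, POLA2 and POLD1 were called higher with p53 knockdown, where 13% of all genes tested were. With BRD7 knockdown the median was 0.20 (0.03 over all genes tested) and 29 members were above the control (52.4% of all genes tested), while 1.47% of all genes tested were called higher and 2.32% lower. No member had an unadjusted p under 0.05 there, and 2647 genes had.

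The members divided by where the knockdowns stood relative to control. All 6 knockdown libraries lay below the control for 5 members, MCM3, MCM6, POLE, TK1 and DUT (11.9%, against 26.1% of all genes tested). All 6 lay above it for 10, ORC6, GMNN, GINS3, POLA2, POLD1, RFC5, FEN1, RPA2, RPA3 and RRM1 (23.8%, against 28.9% of all genes tested). Both shares were under those of all genes. The largest differences below control were TK1 (−1.15, adjusted p = 0.153) and MCM6 (−1.12, adjusted p = 0.224) with lncRNA-OIS1 knockdown, and MCM6 with p53 (−0.90, 95% interval −2.55 to 0.74) and BRD7 knockdown (−0.87, −2.51 to 0.78). The largest above it were ORC6 (1.50, adjusted p = 0.0604), RFC5 (1.23) and GMNN (1.22, adjusted p = 0.0709) with p53 knockdown, none of them called. By role, the median against control with p53 knockdown ran from −0.11 for the nucleotide enzymes through 0.29 for the helicase ring to 1.01 for GINS and CDC45.

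Other genes of the same process were counted from lists grouped by function, which were also chosen with earlier results known. Their counts stand beside the shares of all genes tested: 7.95% called higher and 7.1% lower in senescence, 2.27% called higher with p53 knockdown and 2.67% over the 6 libraries. Among 42 further fork and origin genes the senescent median was −0.45. TIMELESS, which steadies the fork, was the 1 gene of 42 called lower, by 1.26 (adjusted p = 0.0146), under the share of all genes. POLE4, TOP1 and ASF1A rose, 3 of 42 and so about the share of all genes. With p53 knockdown 12 of the 42 rose and none fell (median 1.18), among them TIMELESS by 1.72, MTBP by 2.22 and the kinase CDC7 by 1.25. Over the 6 libraries 13 rose and none fell (median 0.84). With lncRNA-OIS1 hairpins 34 of 42 had a positive change, with a median of 0.75 and no call. Of 18 replication stress and checkpoint genes 5 fell in senescence, RAD1, WEE1, MSH6, BRCA1 and BRCA2, and 4 rose with p53 knockdown and 6 over the 6 libraries. Of 30 mitosis genes, a comparison list outside replication, 4 fell in senescence (median −1.06), 18 rose with p53 knockdown (median 2.24) and 21 rose over the 6 libraries (median 1.49). The medians of that list had the same signs as those of the 42 replication genes (−1.01, 1.62 and 1.14) and were larger in size. With lncRNA-OIS1 and with BRD7 knockdown the mitosis medians were 1.26 and 1.67, against 1.02 and 1.12 for the replication genes, with no call.

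The remaining nucleotide genes went in both directions. Of 31 tested, 2 rose in senescence, NME1 and NT5E (7.95% of all genes tested were called higher), 13 had a negative change, and the median was 0.10. None was called with p53 knockdown, where 21 had a positive change (median 0.29). There 11 had an unadjusted p under 0.05 in limma, as had 3286 of the 12481 genes tested. Over the 6 libraries NME1 fell by 0.52, the 1 call among 31, where 2.11% of all genes tested were called lower. RRM2B, the reductase subunit that p53 induces, is named here after its values were seen. RRM2B had 1076.4 in the control, 4356.7 and 4162.1 in senescent cells, 3183.8, 2426.6, 3450.2 and 1487.0 with lncRNA-OIS1 hairpins, 879.4 with p53 and 2363.6 with BRD7 knockdown. The senescent pair was the highest of the 9 libraries and p53 knockdown the lowest, with differences of 1.98 in senescence (adjusted p = 0.0519) and −2.28 with p53 knockdown (adjusted p = 0.0650).

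Regulators of entry into S phase moved in both directions. Of 31 tested, 6 rose in senescence and 5 fell (7.95% and 7.1% of all genes tested). CDKN1A, which encodes p21, rose by 2.52 (adjusted p = 0.0251), and the cyclin genes CCNE1, CCND1 and CCND3, CDKN2B and the repressor E2F7 rose as well. CDKN2C, E2F2, MYBL2, CDKN1B and RBL2 fell. CDKN1A had 3578.4 in the control, 18745.7 and 22372.6 in senescent cells, 15473.7, 11146.3, 12588.4 and 6989.6 with lncRNA-OIS1 hairpins, 2721.1 with p53 and 9405.6 with BRD7 knockdown. Every knockdown library was below both senescent libraries, and the p53 library was the one below the control. CDKN1A fell by 2.91 with p53 knockdown (adjusted p = 0.0467), and 4 genes of this list rose there, CCNA2, CDKN2C, LIN9 and RBL1. With p53 knockdown 1.57% of all genes tested were called lower. Over the 6 libraries 5 rose and none fell. E2F1, named after its values were seen, had 382.4 in the control, 133.1 and 132.6 in senescent cells, 189.2, 325.7, 249.7 and 362.0 with lncRNA-OIS1 hairpins, 441.0 with p53 and 280.2 with BRD7 knockdown. CCNE1, whose cyclin E works with CDK2 at the start of S phase, had 52.4, then 173.6 and 164.7, then 99.8, 75.6, 107.7 and 109.6, and 89.7 and 115.7, with the senescent pair the highest of the 9 libraries.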

How the data were processed

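PolyA RNA-seq of 9 libraries was analysed from 1 deposited gene table. Its values are a signal per gene and library: read counts that the authors had quantile-normalised and floored, as the table's name and its equal columns show. The submitters' processing notes name TopHat2, HTSeq and the build hg19, without roles or versions; the annotation was not given in the sources used here. Equal distributions remove any difference in total RNA and hide depth. Groups follow the labels. log2 values, with no pseudocount, were fitted in R 4.3.3 with limma 3.58.1 for 12481 genes with a highest value of at least 40, all 9 libraries in 5 groups with 4 residual degrees of freedom and a variance trend. A lone library was taken to vary as the libraries of the replicated groups do, which differ in hairpin. Tests were two-sided, and the threshold for a call was 0.05 after Benjamini-Hochberg adjustment across the genes tested. Means and SDs are of linear values, log2 changes of log2 means. The script was tested on simulated data in which 200 genes changed. All members are described; other genes are named where called, in the lists' roles, or after their values were seen. Members and lists were chosen with earlier results of these data known. Motifs were searched in RefSeq promoters of another build, used for sequence only. Whether counting used strand is not given, so overlapping genes could exchange reads. Some genes that entered the fits are not reported here. Alternatives tried were a pseudocount of 10 or 50, no filter, means of at least 80 only, median-of-ratios scaling, no variance trend, each library of a replicated group left out, a replicate block and, chosen after seeing the data, equal weights of the 3 knockdowns.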

Additional observations from a re-analysis of the deposited data

How the results depend on the processing

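The direction of the members' medians against senescent, and of senescent against control, held under every alternative run; the number called did not. Main counts were 5 lower in senescent cells, 11 higher with p53 knockdown and 16 higher over the 6 knockdown libraries. With a pseudocount of 50 the p53 count was 6 (1.63% of all genes tested called higher). With no filter the 3 counts were 2, 6 and 10 (7.41%, 2.32% and 2.41% of all genes in the same directions), with a mean of at least 80 they were 8, 24 and 27 (7.17%, 3.85% and 4.15%), and with no variance trend the latter pair were 0 and 9 (0% and 2.08%). Median-of-ratios scaling gave 7, 14 and 21 (8.2%, 2.4% and 3.14%), and equal weights of the 3 knockdowns 22 over the 6 libraries (3.33%). With each library left out in turn the counts ran from 0 to 18, from 0 to 36 and from 0 to 34, from 0 to 2 for lncRNA-OIS1 knockdown, stayed at 0 for BRD7 knockdown and ran from 0 to 5 for p53 knockdown against control. Every highest count was without lncRNA-OIS1 replicate 4; leaving out any other library gave at most 3. The causes were not tested. Signs turned for values near 0. The senescent change of ORC6 was −0.0164 under median-of-ratios scaling and ran from −0.0631 to 0.165 with 1 library left out. In the same way RPA2 ran from −0.125 to 0.0216 with lncRNA-OIS1 knockdown and from −0.035 to 0.0871 with p53 knockdown against senescent. The members' median for lncRNA-OIS1 knockdown against control was −0.00987 under median-of-ratios scaling and ran from −0.0463 to 0.168. The replicate numbers name hairpins, so they were not taken to pair libraries. Gene by gene, the deviations of same-numbered libraries from their group means correlated at −0.07 and −0.10. With 2 senescent libraries these deviations mirror each other, so the values say little about pairing. A fit with the replicate block gave 0 members called for lncRNA-OIS1 knockdown against senescent, with a median of 0.97 and 1 residual degree of freedom. Depth is unknown and limits what can be said of the lowest members, such as POLE2.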
